A study of Danio rerio with 24 samples.

Results

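The fr105 allele of zebrafish ikzf1 was compared with wild-type in single cells of whole kidney marrow, and the genes that differed were grouped by function and set beside the mix of cell classes. Libraries labelled fr105 (8) and wild-type (8) were taken, 16 of the 24 libraries of the series, and a cell was a barcode with at least 1500 transcripts among the 96 barcodes of its library that held more transcripts. This gave 649 of the 1008 cells of the series, with 304 cells of fr105 fish and 345 cells of wild-type fish. The fr105 fish were homozygous for a CRISPR/Cas9 deletion inside ikzf1 that removes exons for the N-terminal zinc fingers, so that the predicted truncated product keeps only zinc finger 1 of the DNA-binding domain. Both groups were untreated fish of 3 months of age, and the study's methods give the Tüpfel long fin/Ekkwill background. Kidney marrow cells were sorted by light scatter, 1 cell per well, and their transcripts were counted by mCEL-Seq2, which tags 3′ ends with unique molecular identifiers.

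Ikaros, the protein encoded by ikzf1, is a zinc finger transcription factor that binds DNA with its N-terminal fingers and pairs with itself and its relatives through its C-terminal fingers. It is known from mice and fish for its part in making lymphocytes, and it also acts in myeloid and red cell differentiation, partly through chromatin remodelling complexes. The kidney marrow is the main site of blood formation in adult zebrafish and holds neutrophils, macrophages, lymphocytes, red cell precursors and progenitors beside tubules of the kidney itself.

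Depth differed between the genotypes. The barcodes used held 103585 to 368354 transcripts per library in fr105 and 122155 to 346956 in wild-type, with 23 to 45 and 22 to 56 cells per library. The median cell of a library had 5179 ± 905 transcripts in fr105 and 3725 ± 469 in wild-type (mean ± SD over libraries, n = 8 each, two-sided exact permutation test, p = 0.0023). The other barcodes of each file, which received no cell, held 1.36% of the transcripts in fr105 and 2.47% in wild-type on average. Labels name no fish, so p-values measure the spread between libraries only, and the methods state that libraries of 1 genotype shared a lane, so lane and genotype cannot be told apart. Titles place 4 libraries of each genotype in a set P1 and 4 in a set P2. Calls that did not hold within a set are counted after the gene lists, where only some of these genes are named.

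Cell classes carried very different shares of the transcripts (shown in the plot of class shares), which bears on every sum over all cells. Classes were rebuilt here as clusters of cells that were then named from marker genes. Their names and sizes may differ from those of the study, which gives smaller cell numbers. B cell-like cells, marked by immunoglobulin and CD79 genes, gave 0.183% ± 0.340 of transcripts in fr105 and 4.82% ± 2.26 in wild-type (n = 8 each, exact permutation test adjusted over classes, p = 0.001). T cell-like cells gave none in fr105, where 0 of 304 cells allow a share of up to 0.987% of cells for counting error, and 3.34% ± 3.08 in wild-type (n = 8 each, adjusted p = 0.023 by the same exact test). Unnamed cluster 17 was not counted there and held 1 fr105 cell and 2 wild-type cells. It had 5 of 10 T cell markers, among them trbc1, beside 4 innate lymphocyte markers. Kidney tubule-like cells, which express solute transporters, gave 9.12% ± 6.36 in fr105 and 0.318% ± 0.627 in wild-type (n = 8 each, adjusted exact p = 0.001). An unnamed cluster, cluster 16, held 20 fr105 cells and 1 wild-type cell and gave 5.07% ± 3.76 and 0.361% ± 1.02 (n = 8 each, adjusted exact p = 0.017). Neutrophil-like cells gave 52.7% ± 11.7 in fr105 and 40.3% ± 7.89 in wild-type, which missed the threshold after adjustment (n = 8 each, exact p = 0.028, adjusted 0.074). As a share of cells they made up 49.7% ± 8.16 in fr105 and 52.4% ± 4.63 in wild-type (n = 8 each, exact permutation p = 0.47), while their median cell had 5727 ± 1141 transcripts in fr105 and 3556 ± 528 in wild-type (n = 8 each, exact permutation p = 0.0011). A share of transcripts joins both quantities, and of these the transcripts per cell passed the threshold. Erythroid-like cells gave 4.03% ± 5.15 in fr105 and 13.2% ± 11.7 in wild-type and missed the threshold (n = 8 each, adjusted exact p = 0.095). The erythroid-like difference changed direction between the sets, with 8.05% in fr105 and 6.23% in wild-type in P1 and none in fr105 and 20.2% in wild-type in P2. With classes set by marker lists instead, T cell-like cells gave none in fr105 and 1.72% in wild-type and lost the call (n = 8 each, adjusted exact p = 0.12). With cells of at least 3000 transcripts B cell-like, T cell-like and kidney tubule-like cells and cluster 16 all lost it (n = 8 each, adjusted exact p = 0.059, 0.13, 0.077 and 0.073). The sum over neutrophil markers was 58358 ± 14135 CPM (transcripts scaled to a common library total) in fr105 and 29458 ± 11270 CPM in wild-type over all cells (SD, n = 8 each), and 96217 ± 14564 against 59202 ± 12464 within neutrophil-like cells.

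**Figure D1:**
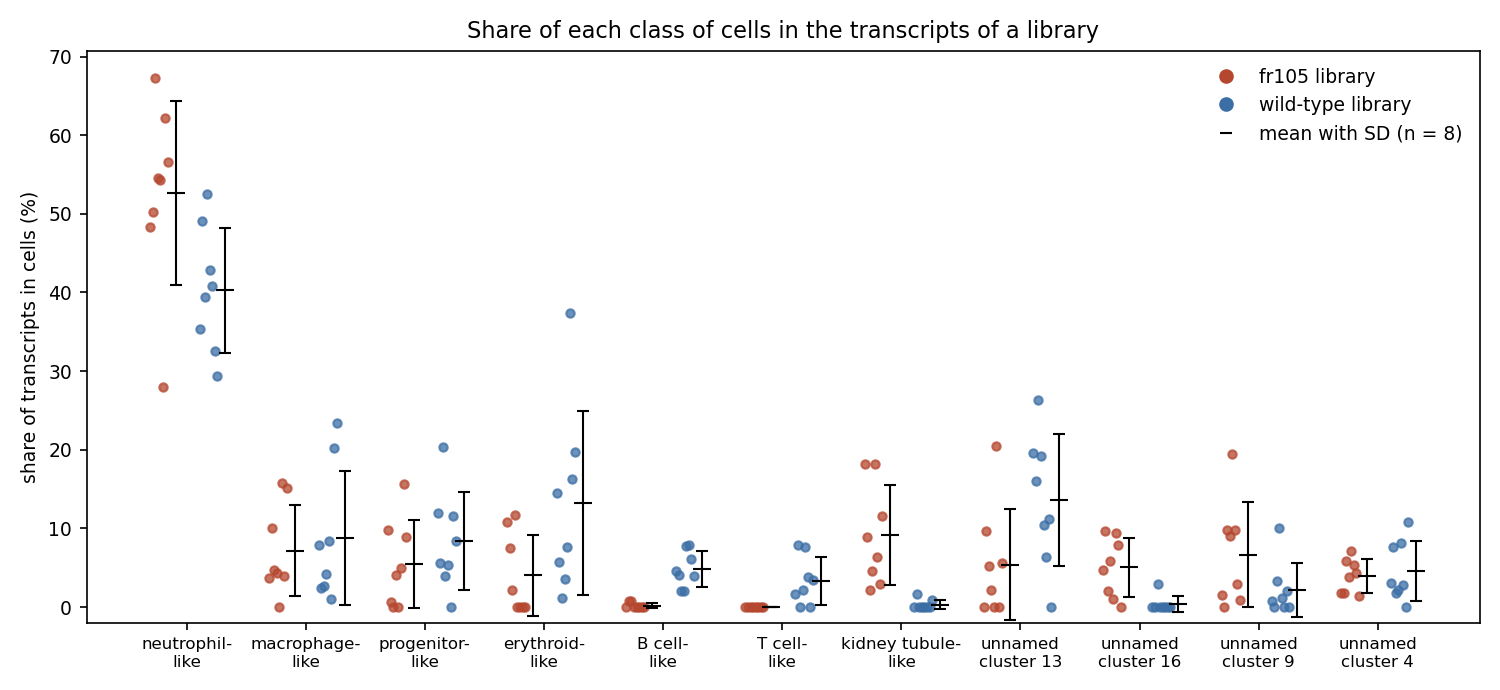
Share of each class of cells in the transcripts of a library (%, vertical axis), 1 point per library, fr105 left of wild-type in each class, with the mean and SD over 8 libraries. B cell-like and T cell-like cells gave 0.183% and 0% of transcripts in fr105 against 4.82% and 3.34% in wild-type, and kidney tubule-like cells 9.12% against 0.318%.

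Each gene was therefore read in 3 ways. Transcripts were summed over all cells of a library and tested between genotypes, the same test was run on neutrophil-like cells alone (151 fr105 cells and 179 wild-type cells), and it was run on all cells with an offset for the level that each library would have if every class had 1 profile in all genotypes, called here the fit at equal class shares. A finer clustering largely split the genotypes among neutrophil-like cells. A cluster led by ca6, maptb and hpxb held 3 fr105 cells and 91 wild-type cells, one led by npsn and lyz held 72 and 20, and one led by anpepla held 55 and 35. Values in neutrophil-like cells therefore compare largely different finer clusters, which were formed with the genes tested. Another finer cluster held 19 fr105 cells and 29 wild-type cells and was left unnamed, with at most 1 marker of any list. Its leading genes included cngb3, trim65 and kcnf1a. These also led a neutrophil-like cluster of the main clustering, which held 70 fr105 cells and 57 wild-type cells. A gene was called at a Benjamini-Hochberg adjusted p under 0.05 in edgeR's quasi-likelihood test. Over all cells 792 of 3296 genes were called (24%), 380 higher in fr105 (11.5%) and 412 lower (12.5%). For 81 genes all fr105 libraries lay above all wild-type libraries (2.46%) and for 60 genes all lay below (1.82%). In neutrophil-like cells 257 of 1357 genes were called (18.9%), 120 higher (8.84%) and 137 lower (10.1%), with 43 genes apart upwards (3.17%) and 31 downwards (2.28%). At equal class shares 373 of 3296 genes were called (11.3%), 176 higher (5.34%) and 197 lower (5.98%). In P1 alone the 3 comparisons called 213 of 2277, 126 of 1169 and 152 of 3296 genes tested. With every cell thinned to 1500 transcripts they called 184 of 772, 61 of 348 and 166 of 3296.

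About as many of the higher as of the lower genes kept their call once class shares were taken into account. Of the 380 genes higher over all cells, 171 were also called higher at equal class shares, and of the 412 lower ones 169 were also called lower. Of those that could be tested in neutrophil-like cells, 99 of 214 higher genes and 78 of 213 lower genes were called in the same direction. No gene was called in opposite directions. The median log2 fold change of the higher genes was 0.97 over all cells and 0.69 at equal class shares, and the class shares alone gave 0.25. For the lower genes these medians were -0.87, -0.63 and -0.26. Genes called in all 3 comparisons numbered 81 higher and 69 lower. A class held almost only by fr105 cells takes its profile from them, so the fit at equal class shares counts whatever is particular to cluster 16 as mix. The profile of kidney tubule-like cells was pooled over 43 fr105 cells and 2 wild-type cells. It also took in 12 and 18 cells of the remaining libraries of the series, from the clusters of this class. The erythroid-like profile was pooled over 7 fr105 cells and 25 wild-type cells. From its clusters it took in 37 and 22 cells of those remaining libraries.

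Function lists differed in how far the class shares alone gave their change (shown in the plots of list medians and of class-share folds). Of all genes tested 24% were called over all cells, 18.9% in neutrophil-like cells and 11.3% at equal class shares. Counts of list members stand beside these shares. Granule, lysosomal, redox, iron and immediate early genes had all-cell medians of 0.99, 0.76, 0.46, 0.95 and -0.63, beyond the class-share medians of 0.30, 0.22, 0.15, -0.01 and -0.03, and their neutrophil-like medians lay on the same side of 0. Ribosomal, nucleolar, mitotic and haem genes had all-cell medians of -0.54, -0.87, -1.40 and -1.37, also beyond the class-share medians of -0.31, -0.36, -0.70 and -0.83. Their neutrophil-like medians were 0.03, -0.18, 0.12 and -0.30, where only 3 nucleolar, 6 mitotic and 4 haem genes were tested. For glycolytic genes both medians were 0.26.

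**Figure D2:**
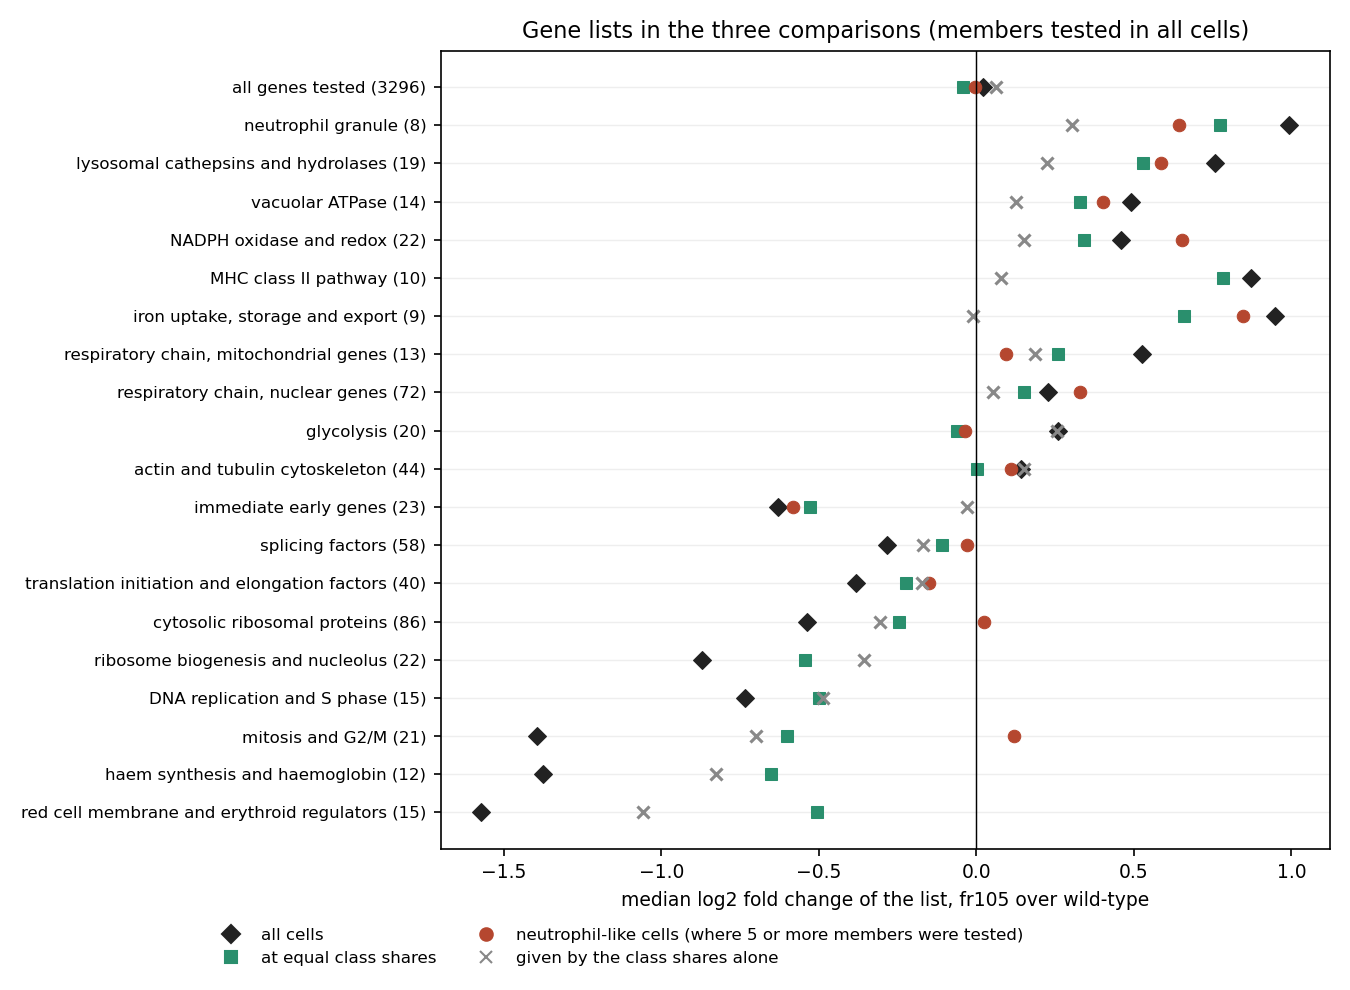
Median log2 fold change (horizontal axis, fr105 over wild-type) of the members tested of 19 gene lists and of all genes tested, in all cells, at equal class shares, in neutrophil-like cells and as given by the class shares alone. Neutrophil granule genes had medians of 0.99, 0.77 and 0.64 with 0.30 given by the class shares, and cytosolic ribosomal proteins -0.54, -0.25 and 0.03 with -0.31 given by the class shares.

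**Figure D3:**
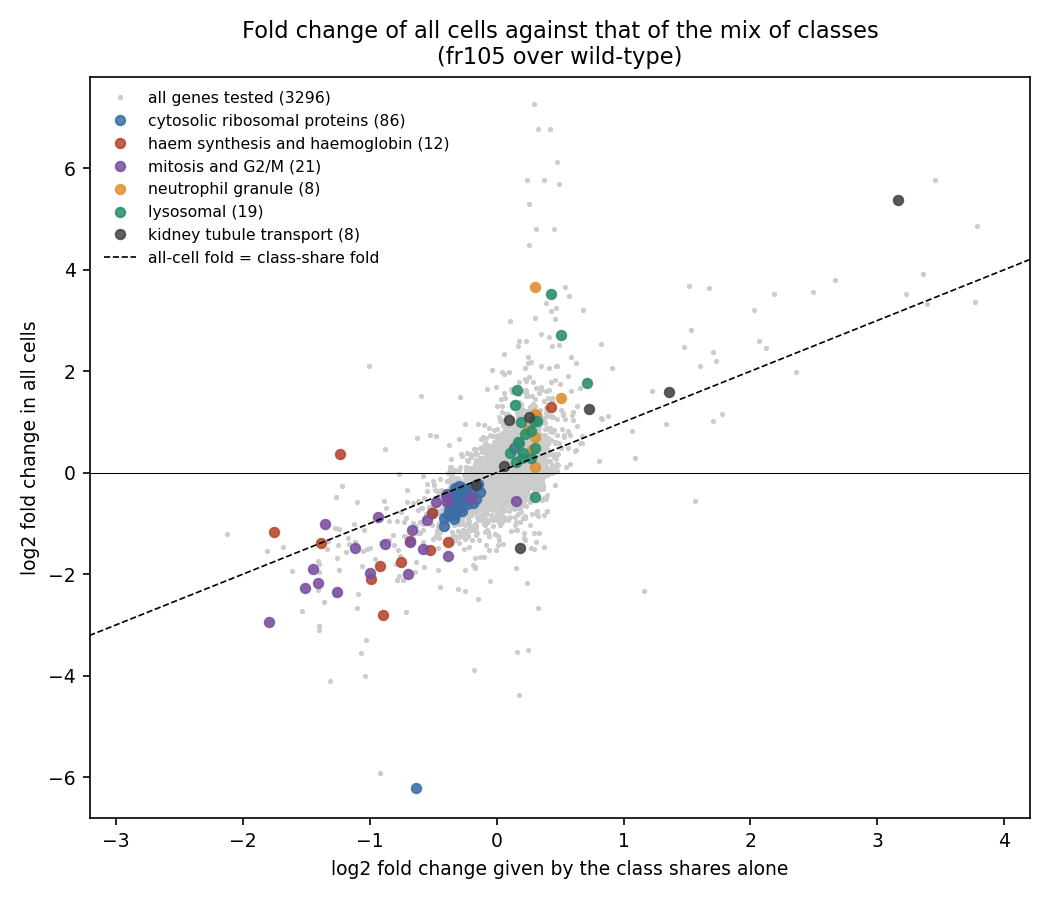
Log2 fold change over all cells (vertical axis) against the log2 fold change given by the class shares alone (horizontal axis), fr105 over wild-type, 1 point per gene tested, with 6 lists in colour and a dashed line where both are equal. The median ribosomal protein gene lies at -0.31 on the horizontal and -0.54 on the vertical axis, and the median granule and lysosomal genes lie above the line, at 0.30 and 0.99 and at 0.22 and 0.76.

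The mutated gene itself was higher in fr105. ikzf1 (ENSDARG00000013539) had 105, 126 and 162 CPM (lowest, median and highest library) in fr105, against 26.5, 55.7 and 87.3 CPM in wild-type. No fr105 library overlapped a wild-type one. Its log2 fold change was 1.14 ± 0.21 (± SE, adjusted p = 1.1e-04) over all cells, 1.05 ± 0.22 at equal class shares and 1.09 ± 0.30 in neutrophil-like cells, and the class shares alone gave 0.09. In cluster 16 it reached 405 CPM pooled over fr105 cells, and macrophage-like cells held 25 ikzf1 transcripts in fr105 and 1 in wild-type. In P1 alone the log2 fold change was 0.91 and the call was lost (adjusted p = 0.063). Counted 3′ ends do not show which transcripts lack the deleted exons, so these counts are no check of the genotype. Of the 11 genes of the Ikaros family and of stem cell regulators that were tested, 3 rose and 1 fell over all cells. That is 36.4% called, against 24% of all genes tested. The 3 that rose were also called at equal class shares. Beside ikzf1 these were notch1b, a Notch receptor, with a median library of 70.5 CPM in fr105 and 21.9 CPM in wild-type (log2 fold change 1.45 ± 0.30), and kita, a receptor for Kit ligand, with 54.4 CPM and 17.3 CPM (1.58 ± 0.37). Neutrophil-like cells held 80 kita transcripts in fr105 and 14 in wild-type. The one that fell was lmo2, a cofactor of blood stem cell and red cell development.

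Neutrophil granule genes were higher in fr105 in all 3 comparisons. Of 8 members tested 5 rose and none fell over all cells, 5 rose at equal class shares and 4 of 8 rose in neutrophil-like cells, with medians of 0.99, 0.77 and 0.64 on the log2 scale against 0.02, -0.04 and -0.003 for all genes tested. The 5 were npsn, mpx, cpa5, lyz, which encodes lysozyme, and lect2l. npsn, which encodes the astacin-like metalloprotease nephrosin, had 11491, 16030 and 20222 CPM in neutrophil-like cells of fr105, against 878, 1601 and 1872 CPM in those of wild-type. Every fr105 library lay above every wild-type library. Its log2 fold change was 3.36 ± 0.13 there (adjusted p = 4.9e-27) and 3.65 ± 0.25 over all cells (adjusted p = 1.9e-10), with 0.30 given by the class shares. Transcripts of npsn were also found outside neutrophil-like cells, at 526 CPM in erythroid-like and 642 CPM in macrophage-like cells of fr105, against 42.5 and 50.1 CPM in those of wild-type, and the part of free RNA in these was not tested. mpx, the myeloperoxidase of zebrafish granulocytes, had 3168, 4058 and 4506 CPM in neutrophil-like cells of fr105 and 1817, 2221 and 2560 CPM in those of wild-type, again without overlap (log2 fold change 0.81 ± 0.10, adjusted p = 3.5e-08). cpa5, a carboxypeptidase, had 2110, 2932 and 3998 CPM there in fr105 and 1073, 1728 and 2353 CPM in wild-type, with some overlap (0.80 ± 0.15, adjusted p = 1.4e-04). Several of these genes also served to name the class, so the comparison inside it rests on cells grouped partly by them.

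Lysosomal genes were higher too. Of 19 cathepsin and hydrolase genes tested 11 rose and none fell over all cells, and at equal class shares 7 rose and 1 fell, with medians of 0.76 and 0.53 and 0.22 given by the class shares. Of the 10 tested in neutrophil-like cells 5 rose and 1 fell (median 0.59). The 11 were the cathepsin genes ctsla, ctss1, ctss2.2, ctsk, ctsba and ctsd, the protease genes LGMN and tpp1, and hexb, psap and cd63. ctsk, which encodes cathepsin K, had 75.4, 148 and 199 CPM in neutrophil-like cells of fr105, against 0, 0 and 21 CPM in those of wild-type. All 8 fr105 libraries lay above the highest wild-type library. Its log2 fold change was 4.75 ± 0.49 there (adjusted p = 9.4e-11) and 3.53 ± 0.29 over all cells (adjusted p = 6.6e-12). cd63, a tetraspanin of lysosomes and granules, had 1914, 2454 and 2644 CPM in neutrophil-like cells of fr105 and 1346, 1590 and 2040 CPM in those of wild-type, with overlap (0.53 ± 0.12, adjusted p = 4.5e-04). In P1 alone 3 of 15 lysosomal genes tested rose and in P2 alone 8 of 16.

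Subunits of the vacuolar ATPase, the proton pump that acidifies lysosomes, followed the same direction. Over all cells 6 of 14 rose and 1 fell (median 0.49), at equal class shares 3 rose and 1 fell, and 4 of the 11 tested in neutrophil-like cells rose. ATP6V1H had 66.7, 93.7 and 168 CPM over all cells of fr105 and 25, 53.2 and 62.3 CPM over those of wild-type, without overlap (log2 fold change 1.03 ± 0.25, adjusted p = 0.0024). ATP6V1F and atp6v0d1 had 1.07 ± 0.24 and 1.07 ± 0.26, with overlapping libraries, and their values in neutrophil-like cells were 0.92 ± 0.30 and 1.19 ± 0.32 (adjusted p = 0.022 and 0.0058). That of ATP6V1F was lost without wild-type replicate 1 or 6 (0.75 to 0.80). Leaving out 1 library at a time also ended calls at equal class shares, for ATP6V1H in 10 fits (0.60 to 0.72), ATP6V1F in 4 and atp6v0d1 in 2.

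Matrix metalloproteinase genes, which encode enzymes that cut extracellular matrix, moved in both directions. Of 8 tested 1 rose and 1 fell over all cells (25% called, against 24% of all genes tested), and in neutrophil-like cells 1 rose and 3 fell (median -0.42). mmp14b, a membrane-bound member, had 63.7, 109.6 and 213 CPM in neutrophil-like cells of fr105 and 0, 0 and 12.6 CPM in those of wild-type (log2 fold change 4.52 ± 0.55, adjusted p = 9.2e-09). mmp13a, a collagenase, had 292, 683 and 951 CPM there in fr105 and 1367, 1640 and 3150 CPM in wild-type (-1.67 ± 0.27, adjusted p = 8.5e-05). Neither gene had overlapping libraries, and for mmp13a the class shares gave 0.33, opposite in sign to its change.

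**Figure D4:**
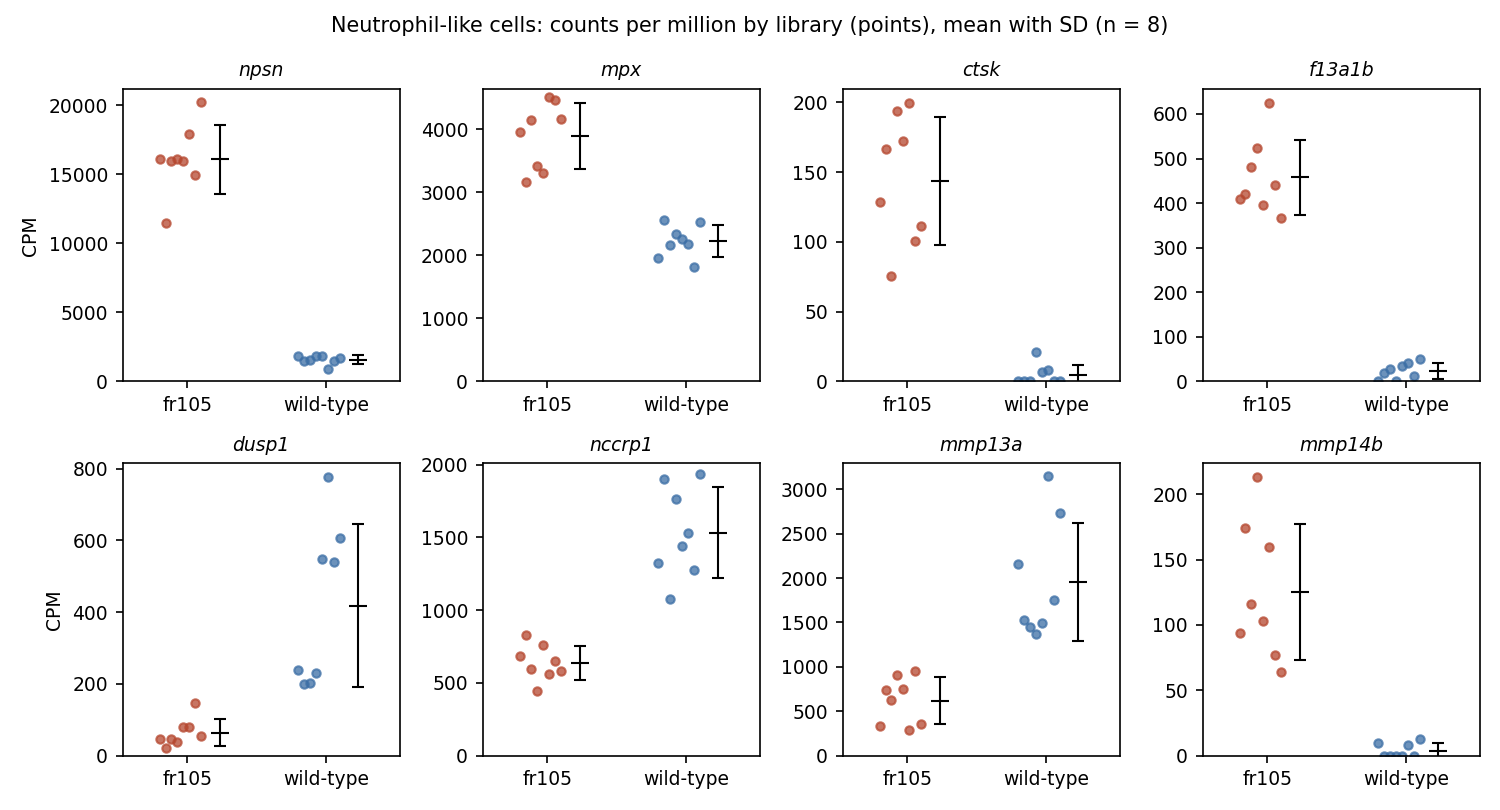
Normalized CPM (vertical axes from 0) of 8 genes in neutrophil-like cells, 1 point per library, fr105 left of wild-type, with the mean and SD over 8 libraries. npsn, mpx, ctsk, f13a1b and mmp14b lie higher in every fr105 library than in any wild-type library, and dusp1, nccrp1 and mmp13a lie lower.

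NADPH oxidase and redox genes were higher in all 3 comparisons. The oxidase makes superoxide in phagocytes, and peroxiredoxins, thioredoxins and glutathione enzymes keep oxidants in check. Over all cells 10 of 22 rose and 1 fell (median 0.46, with 0.15 given by the class shares), at equal class shares 7 rose and 1 fell (0.34), and in neutrophil-like cells 8 of 17 rose and 1 fell (0.65). Among the 10 were the oxidase subunit genes cyba and ncf4 and prdx5, prdx1, zgc:56493, txnb, gsr and GLRX, and the lower one was prdx3, a mitochondrial peroxiredoxin. gsr, glutathione reductase, had 191, 264 and 333 CPM in neutrophil-like cells of fr105 and 105, 167 and 189.6 CPM in those of wild-type, without overlap (log2 fold change 0.74 ± 0.20, adjusted p = 0.0064). prdx5, a peroxiredoxin, had 783, 895 and 1200 CPM there in fr105 and 246, 558 and 715 CPM in wild-type, also apart (0.79 ± 0.15, adjusted p = 5.0e-05). zgc:56493, known here only by its clone name, had 0.67 ± 0.15 with overlapping libraries (adjusted p = 6.0e-04).

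More iron genes were called higher than lower. Of 9 iron uptake, storage and export genes tested 5 rose and 2 fell over all cells (median 0.95, class shares -0.01), 5 rose and 1 fell at equal class shares (0.66), and 3 of 6 rose in neutrophil-like cells (0.85). Without the tfr1b models described next, 4 of 7 rose and 1 fell over all cells. The list sum did not follow these counts, with 1653 ± 496 CPM in fr105 and 1970 ± 943 CPM in wild-type (SD, n = 8 each), and 64.1% of it came from the ferritin gene fth1a, which was not called. steap4, a metalloreductase, had 109, 123 and 175 CPM over all cells of fr105 and 7.92, 39.7 and 50.9 CPM over those of wild-type, without overlap (log2 fold change 1.76 ± 0.23, adjusted p = 2.1e-07), and 1.23 ± 0.26 in neutrophil-like cells. The ferritin genes fthl27 and fthl31 and ACO1, an aconitase gene, also rose, and slc11a2, an iron transporter, fell.

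A pair of gene models that both carry the name tfr1b, a transferrin receptor for iron uptake, differed in opposite directions. The model ENSDARG00000077372 of tfr1b had 60.6, 105 and 148 CPM in fr105 and 0, 0 and 3.96 CPM in wild-type, from 209 transcripts against 1 transcript, a ratio of 202 (95% exact interval 35.9 to 8029, counting error only). The model ENSDARG00000012552 of tfr1b had 0, 3.6 and 14.1 CPM in fr105 and 40, 81 and 102 CPM in wild-type (log2 fold change -3.89 ± 0.38, adjusted p = 4.6e-10). Neither model had overlapping libraries. Summed over both models, tfr1b had 108.7 ± 32.6 CPM in fr105 and 79.4 ± 22.6 CPM in wild-type (SD, n = 8 each). Reads that map to several places were discarded by the authors, and how near-identical models split the reads was not tested.

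Genes of the haem synthesis and haemoglobin list were mostly lower over all cells, which turned on the set of libraries. Their median was -1.37, with 1 of 12 higher and 6 lower, and the class shares gave -0.83. At equal class shares 1 was higher and 1 lower (-0.65). In P1 alone the median was 0.60, with 1 of 5 genes tested higher and none lower, and in P2 alone it was -3.38, with 1 of 10 higher and 9 lower, beside the erythroid-like shares above. The one that rose was alas1, the housekeeping form of the first enzyme of haem synthesis, with 112, 139 and 208 CPM in fr105 and 35.6, 51 and 98 CPM in wild-type, without overlap (log2 fold change 1.29 ± 0.20, adjusted p = 9.4e-06), and 0.94 ± 0.28 in neutrophil-like cells. Those that fell were alad, hmbsa, hmbsb, uros and urod, enzymes further along the pathway, and the mitochondrial transporter gene abcb10. No haemoglobin gene was among them. The globin gene ba1 gave 91.3% of the list sum over all cells. This sum was 12661.5 ± 15644.9 CPM in fr105 and 26507.9 ± 15381.9 CPM in wild-type (mean ± SD over libraries), with overlap. uros had 0, 3.13 and 32.9 CPM in fr105 and 0, 32 and 50.9 CPM in wild-type, with overlap (-2.81 ± 0.62, adjusted p = 0.0012).

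Red cell membrane and erythroid regulator genes fell in 4 of 15 cases and rose in none (26.7% called, against 24% of all genes tested). Their median was -1.57, with -1.06 given by the class shares. At equal class shares 1 fell (6.67% called, against 11.3% of all genes tested). dmtn, which encodes a red cell membrane skeleton protein, had 3 transcripts in fr105 and 66 in wild-type, a ratio of wild-type over fr105 of 22.7 (95% exact interval 7.45 to 113, counting error only). aqp1a.1, a water channel of red cells, and epor, the erythropoietin receptor, had log2 fold changes of -2.41 ± 0.64 and -2.11 ± 0.62 (adjusted p = 0.0065 and 0.016) and were not called at equal class shares (adjusted p = 0.13 and 0.099). These values differed by set. In P1 epor had 3.92 to 43.6 CPM in fr105 and 0 to 59.5 CPM in wild-type, and in P2 8.59 to 20.1 CPM and 56.5 to 197 CPM. aqp1a.1 had 3.92 to 21.4 CPM and 0 to 42 CPM in P1, and 0 CPM and 30.2 to 67.3 CPM in P2. Wild-type dmtn had 4.93 to 10.5 CPM in P1 and 11.9 to 80 CPM in P2. Inside neutrophil-like cells the erythroid markers summed to 1598 ± 1446 CPM in fr105 and 5077 ± 3306 CPM in wild-type (SD, n = 8 each), and the part of RNA from other cells in these values was not tested.

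**Figure D5:**
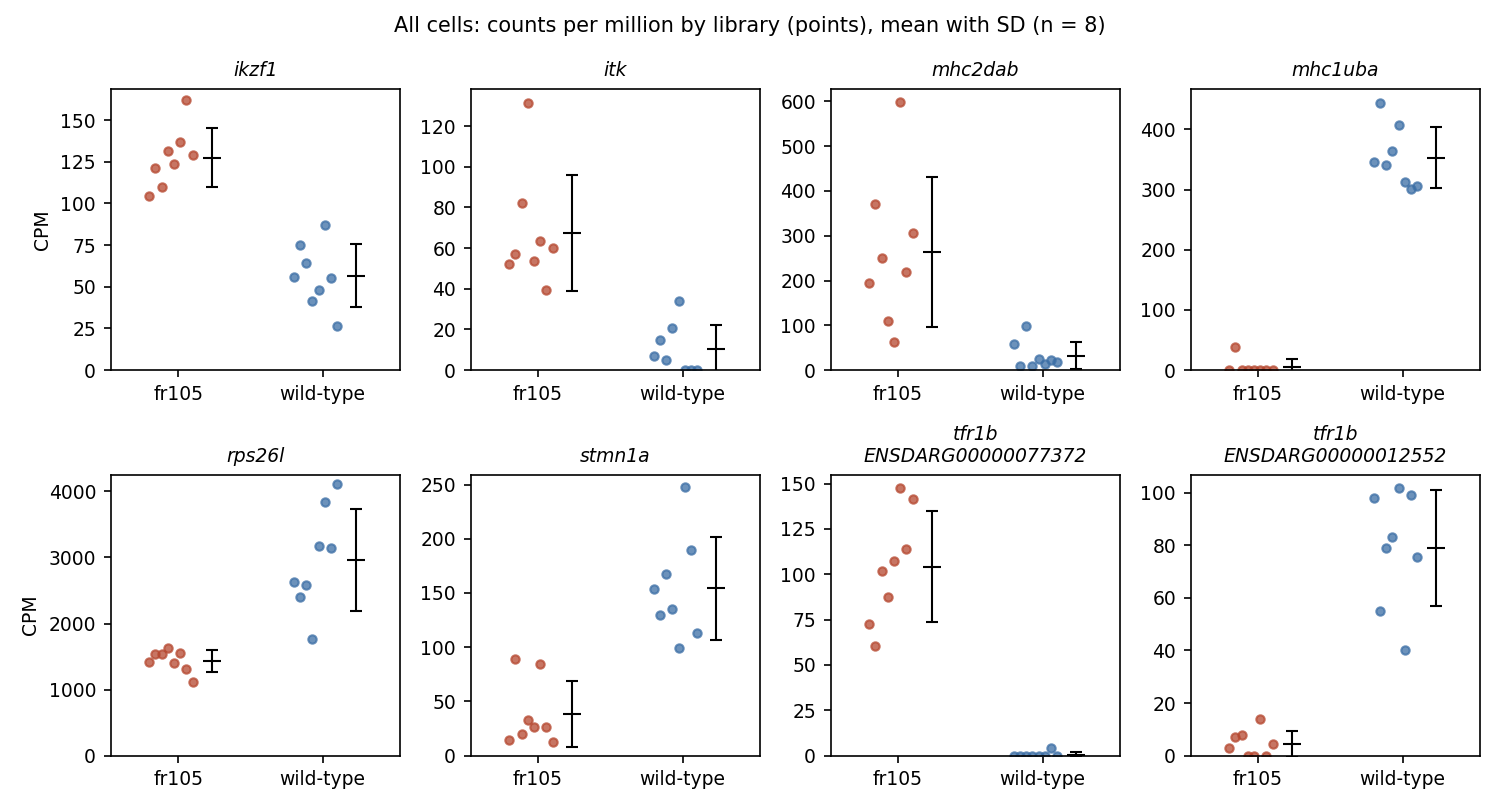
Normalized CPM (vertical axes from 0) of 8 gene models over all cells, 1 point per library, fr105 left of wild-type, with the mean and SD over 8 libraries. ikzf1, itk and one tfr1b model lie higher in every fr105 library than in any wild-type library, mhc1uba, rps26l, stmn1a and the other tfr1b model lie lower, and mhc2dab overlaps.

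Genes of antigen presentation by MHC class II were called higher more often than lower. Over all cells 5 of 10 rose and none fell (median 0.87, class shares 0.08), and 4 rose and 1 fell at equal class shares (0.78). In neutrophil-like cells 3 were tested, of which 1 rose and 1 fell. The 5 higher over all cells were the class II chain genes mhc2daa and mhc2dab and the lysosomal protease genes LGMN, ctss1 and ctss2.2. These proteases are counted among the lysosomal genes too. The gene cd74a, which gave 50.2% of the list sum, was not among the 5. mhc2dab had 63.6, 235 and 598 CPM in fr105 and 9.98, 21.3 and 98.6 CPM in wild-type, with overlap (log2 fold change 2.99 ± 0.56, adjusted p = 5.1e-04). Pooled over macrophage-like cells, of which there were 21 in each genotype, mhc2dab reached 2258 CPM in fr105 and 106 CPM in wild-type. This difference between few cells was not tested. ctss2.2, a cathepsin S gene and one of the leading genes of cluster 16, had 78.5, 138 and 162 CPM in fr105 and 9.98, 14.5 and 35 CPM in wild-type, without overlap (2.71 ± 0.28, adjusted p = 1.0e-09).

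In the class I pathway 2 of 16 genes rose and 3 fell (31.25% called, against 24% of all genes tested). The medians were 0.12 over all cells and -0.02 from the class shares. Both class I heavy chain genes tested differed, in opposite directions. mhc1uba had 0, 0 and 39.2 CPM in fr105 and 301, 343 and 444 CPM in wild-type (log2 fold change -5.91 ± 0.45, adjusted p = 5.9e-11). All mhc1uba transcripts of fr105 came from replicate 2, where 9 of 45 cells held 11 transcripts between them, and the other 7 libraries held none. mhc1zba had 141, 188 and 329 CPM in fr105 and 41.5, 102 and 119.8 CPM in wild-type, without overlap (1.04 ± 0.19, adjusted p = 8.3e-05). The sum of both was 209 ± 57.9 CPM in fr105 and 447 ± 61.8 CPM in wild-type (SD, n = 8 each). Class I genes differ between fish haplotypes, and the part of haplotype in these values was not tested. psmb8, an immunoproteasome subunit, had 24.9, 50.6 and 56.2 CPM in fr105 and 51.9, 103 and 133 CPM in wild-type (-1.02 ± 0.24, adjusted p = 0.0014). None of the 4 interferon response genes tested was called over all cells.

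Few lymphocyte genes were high enough to be tested, with 6 immunoglobulin and B cell receptor genes, 2 T cell receptor and signalling genes and 2 innate lymphocyte genes above the filter on low counts. ighm, the IgM heavy chain gene, had 11, 23.6 and 58.8 CPM in fr105 and 31.5, 58 and 87.1 CPM in wild-type, with overlap (log2 fold change -1.10 ± 0.39, adjusted p = 0.038). The class shares gave -1.28 for ighm, and 0.18 ± 0.38 was left at equal class shares (adjusted p = 0.83). The call of ighm over all cells was lost without fr105 replicate 1, 2 or 4 to 8 or wild-type replicate 2, 6 or 7 (-1.12 to -1.0). itk, a kinase of T cell receptor signalling and a T cell marker here, had 39.4, 58.6 and 132 CPM in fr105 and 0, 5.96 and 33.9 CPM in wild-type, without overlap (2.60 ± 0.44, adjusted p = 2.7e-05). Neutrophil-like cells held 104 itk transcripts in fr105 and 7 in wild-type, and itk made up 72.6% of the T cell marker sum there. nccrp1, known in fish as a receptor of nonspecific cytotoxic cells, had 445, 623 and 826 CPM in neutrophil-like cells of fr105 and 1076, 1485 and 1935 CPM in those of wild-type, without overlap (-1.24 ± 0.13, adjusted p = 2.0e-10), and -0.98 ± 0.16 over all cells.

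Translation genes were lower over all cells, by more than the class shares gave, with fewer calls at equal class shares and in neutrophil-like cells. Cytosolic ribosomal protein genes fell in 74 of 86 cases over all cells and rose in none (median -0.54), where the class shares gave -0.31. At equal class shares 14 fell (-0.25) and in neutrophil-like cells 2 of 83 (0.03). Their sum was 89602 ± 10883 CPM in fr105 and 130346 ± 14034 CPM in wild-type over all cells, and 73903 ± 8317 CPM against 73390 ± 10766 CPM in neutrophil-like cells (SD, n = 8 each). Without B cell-like, T cell-like, erythroid-like and kidney tubule-like cells 33 of 85 fell, and 21 of 85 fell in P1 alone against 74 of 86 in P2 alone. rps26l had 1117, 1477 and 1633 CPM over all cells of fr105 and 1766, 2891 and 4106 CPM over those of wild-type, without overlap (log2 fold change -1.04 ± 0.14, adjusted p = 2.2e-07). In neutrophil-like cells its value was -0.41 ± 0.14 (adjusted p = 0.032), with 0.05 in P1 alone and -0.79 in P2 alone. Leaving out fr105 replicate 1 or 4 to 8 or wild-type replicate 1, 3 or 5 to 8 ended the neutrophil-like call of rps26l (-0.39 to -0.34). faua, which encodes a ubiquitin-like fusion with a small-subunit protein, had -0.89 ± 0.12 over all cells and -0.13 ± 0.14 in neutrophil-like cells (adjusted p = 3.7e-07 and 0.59). The gene model rps11l had 2 transcripts in fr105 and 209 in wild-type, a ratio of wild-type over fr105 of 108 (95% exact interval 29.5 to 897, counting error only), and how close copies split its reads was not tested.

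Other parts of the translation machinery were also lower. Of 40 initiation and elongation factor genes 15 fell and 2 rose over all cells (median -0.38, class shares -0.17), and 3 fell and 1 rose at equal class shares. eef1g, an elongation factor subunit, had 691, 966 and 1174 CPM in fr105 and 1246, 1478 and 1739 CPM in wild-type, without overlap (log2 fold change -0.67 ± 0.12, adjusted p = 7.3e-05). eif5a and eif5a2, which encode forms of the factor eIF5A, had -0.79 ± 0.15 and -1.02 ± 0.21, and of these eif5a was also called in neutrophil-like cells (-0.50 ± 0.14, adjusted p = 0.0098). Of 22 ribosome biogenesis and nucleolar genes 12 fell and none rose (median -0.87, class shares -0.36), and 1 fell at equal class shares (-0.54). nop58, a core protein of small nucleolar particles, had 32, 85.5 and 109.8 CPM in fr105 and 115, 186 and 281 CPM in wild-type, without overlap (-1.28 ± 0.30). Its partner nop56 and npm1a, nucleophosmin, had -0.87 ± 0.19 and -1.26 ± 0.31.

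Cell cycle genes were lower over all cells. Of 21 mitosis and G2/M genes 17 fell and none rose (median -1.40, class shares -0.70), 4 fell at equal class shares (-0.60), and in neutrophil-like cells 2 of 6 fell (0.12). Those lower over all cells included top2a, mki67, tpx2, cenpf, NUSAP1, SMC2 and smc4, which act on mitotic chromosomes and the spindle, and ccnd1 and ccnd2a, which encode D cyclins. The list sum was 2802 ± 698 CPM in fr105 and 5396 ± 1187 CPM in wild-type over all cells, and 2435 ± 908 CPM against 2445 ± 789 CPM in neutrophil-like cells (SD, n = 8 each). Unnamed cluster 13 had top2a, mki67, cenpf, tpx2 and NUSAP1 among its leading genes and held 8 fr105 cells and 19 wild-type cells. Of transcripts it gave 5.403% ± 7.02 in fr105 and 13.6% ± 8.37 in wild-type and missed the threshold (SD, n = 8 each, adjusted exact permutation p = 0.095). Its shares in fr105 and wild-type were 4.28% and 20.3% in P1, and 6.52% and 6.98% in P2. stmn1a, a microtubule regulator of dividing cells, had 12.9, 26.5 and 89.1 CPM in fr105 and 98.9, 144 and 247 CPM in wild-type, without overlap (log2 fold change -1.98 ± 0.34, adjusted p = 6.3e-05). The class shares gave -1.0 for stmn1a and -1.19 ± 0.32 was left at equal class shares (adjusted p = 0.011). Pooled over progenitor-like cells it had 86.7 CPM in fr105 and 381 CPM in wild-type, a difference between few cells that was not tested. Of 15 DNA replication genes 5 fell and 1 rose (median -0.73, class shares -0.49), and none fell and 1 rose at equal class shares. LIG1, a DNA ligase, dek, a chromatin protein, and chaf1a, a histone chaperone subunit, had log2 fold changes of -1.11 ± 0.26, -1.25 ± 0.29 and -1.19 ± 0.28 over all cells.

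Mitochondrially encoded respiratory genes and glycolytic genes were called higher more often than lower over all cells, with fewer calls at equal class shares. Of the 13 respiratory chain genes encoded in mitochondria 7 rose and none fell over all cells (median 0.53, class shares 0.19), 3 rose at equal class shares (0.26), and 3 rose and 1 fell of the 11 tested in neutrophil-like cells (0.09). MT-ND2 had 2777, 3309 and 4974 CPM over all cells of fr105 and 1789, 2035 and 2520 CPM over those of wild-type, without overlap (log2 fold change 0.73 ± 0.12, adjusted p = 1.7e-05), and 0.33 ± 0.10 in neutrophil-like cells. MT-CO1 had 0.68 ± 0.12 over all cells and 0.15 ± 0.09 in neutrophil-like cells (adjusted p = 4.2e-05 and 0.3). Without B cell-like, T cell-like, erythroid-like and kidney tubule-like cells 3 mitochondrial genes rose. That fit kept unnamed cluster 4, which had 8 mitochondrial genes among its 10 leading genes. Cluster 4 made up 8.09% ± 4.66 of cells in fr105 and 3.50% ± 1.87 in wild-type (SD, n = 8 each, adjusted exact permutation p = 0.055). Of transcripts it gave 3.92% ± 2.13 and 4.55% ± 3.80 (n = 8 each, adjusted exact permutation p = 0.81). Of 72 respiratory chain genes encoded in the nucleus 5 rose and none fell (6.94% called, against 11.5% of all genes tested called higher), and 1 rose at equal class shares. The 5 included UQCRFS1, atp5if1b and SDHA at 0.96 ± 0.22, 1.00 ± 0.27 and 0.93 ± 0.26. Of 20 glycolytic genes 6 rose and none fell over all cells (30% called, against 24% of all genes tested). Their median was 0.26 beside 0.26 from the class shares. At equal class shares 1 rose and 1 fell (10% called, against 11.3% of all genes tested, median -0.06). aldoaa, an aldolase, had 0.67 ± 0.15 over all cells and 0.52 ± 0.17 in neutrophil-like cells (adjusted p = 0.0011 and 0.019), while in that class 1 of 15 glycolytic genes rose and 4 fell. The neutrophil-like call of aldoaa was lost without fr105 replicate 2 or wild-type replicate 6 (0.46 in both).

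Immediate early genes, which respond quickly to stimuli and to the handling of cells, were lower in fr105. Over all cells 10 of 23 fell and 2 rose (median -0.63), while the class shares gave -0.03. At equal class shares 5 fell and 1 rose (-0.53), and in neutrophil-like cells 7 of 15 fell and 1 rose (-0.58). The 10 were fos, egr1, ier5, dusp1, btg2, nr4a1, klf2b, klf6a, gadd45aa and nfkbiab. dusp1, a phosphatase that turns off MAP kinases, had 21.7, 51.2 and 147 CPM in neutrophil-like cells of fr105 and 199, 389.7 and 777 CPM in those of wild-type, without overlap (log2 fold change -2.69 ± 0.33, adjusted p = 8.7e-08), with -2.41 in P1 and -2.77 in P2. nfkbiab, an inhibitor of NF-kappaB, had 121, 155 and 239 CPM there in fr105 and 299, 338 and 531 CPM in wild-type, without overlap (-1.21 ± 0.23, adjusted p = 5.8e-05). ZFP36, which promotes decay of inflammatory mRNAs, rose with 0.70 ± 0.18 in neutrophil-like cells (adjusted p = 0.0044), and so did socs3b, an inhibitor of cytokine signalling and a leading gene of cluster 16, over all cells. The labels give no time or order of the sorts, and their part in these values was not tested.

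Myeloid regulators and receptors showed no common direction. Of 13 tested 4 rose and 2 fell over all cells (46.2% called, against 24% of all genes tested). Both in neutrophil-like cells and at equal class shares 1 rose and 3 fell. cebpg, a C/EBP transcription factor, had 46.9, 82.4 and 112 CPM in fr105 and 19.7, 30.1 and 39.9 CPM in wild-type, without overlap (log2 fold change 1.55 ± 0.25, adjusted p = 1.5e-05). spi1b, which encodes the myeloid factor PU.1, had 0.59 ± 0.15 over all cells (adjusted p = 0.0025), and was not called at equal class shares or in neutrophil-like cells (0.37 and 0.18, adjusted p = 0.11 and 0.49). Among chemokine genes cxcr4b, a receptor that holds cells in the marrow, had 1219, 1489 and 1820 CPM in neutrophil-like cells of fr105 and 1802, 2045 and 2458 CPM in those of wild-type (-0.44 ± 0.11, adjusted p = 0.0042). ccl34b.8, a chemokine, had 75 transcripts in fr105 and 1 in wild-type, a ratio of 72.6 (95% exact interval 12.6 to 2905, counting error only), and macrophage-like cells held 52 of them in fr105.

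Cytoskeletal and adhesion genes changed member by member. Of 44 actin and tubulin genes 10 rose and 7 fell (38.6% called, against 24% of all genes tested, median 0.14, class shares 0.15). coro1ca, an actin-binding coronin, had 223, 291 and 371 CPM in neutrophil-like cells of fr105 and 26.9, 95.5 and 126 CPM in those of wild-type, without overlap (log2 fold change 1.71 ± 0.23, adjusted p = 8.3e-08), and tpm4a, a tropomyosin, had 1.34 ± 0.21 there. The tubulin genes tubb4b and tuba5 had -0.91 ± 0.16 and -1.50 ± 0.27 over all cells, and of these tuba5 was also called in neutrophil-like cells (-0.75 ± 0.25, adjusted p = 0.025). The tuba5 call in neutrophil-like cells was lost without fr105 replicate 1, 3 or 6 or wild-type replicate 5 or 7 (-0.71 to -0.59). Among 18 integrin and adhesion genes 4 rose and 3 fell (38.9% called, against 24% of all genes tested). Among them were flna, an actin cross-linker, at 0.96 ± 0.17, itgb1a, an integrin beta chain, at -2.74 ± 0.54 and cd44b, a hyaluronan receptor, at -1.17 ± 0.32. Among 13 annexin, galectin and S100 genes 3 rose and 1 fell over all cells (30.8% called, against 24% of all genes tested). At equal class shares 1 fell (7.69% called, against 11.3% of all genes tested). s100a10b, a partner of annexin A2, had 461, 636 and 794 CPM in neutrophil-like cells of fr105 and 115, 240.3 and 307 CPM in those of wild-type (1.48 ± 0.21, adjusted p = 3.1e-07). anxa2a, an annexin A2 gene, had 77.3, 118 and 174 CPM there in fr105 and 209, 242 and 331 CPM in wild-type (-1.15 ± 0.21, adjusted p = 4.5e-05). Neither overlapped, and s100a10b was not called at equal class shares (0.68 ± 0.25, adjusted p = 0.089).

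Kidney tubule transport genes were higher beside the larger share of kidney tubule-like cells. Of 8 tested 4 rose and 1 fell over all cells (median 1.06, class shares 0.22), and 3 rose and 1 fell at equal class shares (0.26). In neutrophil-like cells 2 of 5 rose and 1 fell (0.10). CDH17, a cadherin, had 7.85, 131 and 477 CPM in fr105 and 0, 0 and 15.1 CPM in wild-type (log2 fold change 5.37 ± 0.94, adjusted p = 2.5e-04). The class shares gave 3.16 for CDH17, and 1.99 ± 0.59 was left at equal class shares (adjusted p = 0.022). That call was lost without wild-type replicate 2 or 5 (1.78 and 1.79). atp1a1a.4, a sodium pump subunit, had 1.25 ± 0.23 over all cells and 0.10 ± 0.28 in neutrophil-like cells (adjusted p = 1.3e-04 and 0.87). sult2st1, a sulfotransferase in the same list, had 38.7, 91.4 and 130.5 CPM in neutrophil-like cells of fr105 and 177, 329 and 488 CPM in those of wild-type, without overlap (-1.80 ± 0.27, adjusted p = 7.1e-07).

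Of 6 thrombocyte genes tested 1 rose over all cells (16.7% called, against 24% of all genes tested). This was f13a1b, a coagulation factor XIII A gene, with 366, 431 and 625 CPM in neutrophil-like cells of fr105 and 0, 23.4 and 50.6 CPM in those of wild-type, without overlap (log2 fold change 4.1 ± 0.28, adjusted p = 9.0e-17). It made up 63.8% of the thrombocyte marker sum there, which was 607 ± 135 CPM in fr105 and 223 ± 84.4 CPM in wild-type (SD, n = 8 each).

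Chromatin genes had few calls. Of 38 chromatin remodelling and histone deacetylase genes 3 fell and none rose (7.89% called, against 24% of all genes tested), namely dnmt4, a DNA methyltransferase, at -1.53 ± 0.32 and HDAC1 and rbbp4, members of deacetylase complexes, at -0.67 ± 0.24 and -0.75 ± 0.28 (adjusted p = 5.0e-04, 0.039 and 0.049). The calls of HDAC1 and rbbp4 did not hold at equal class shares (-0.48 ± 0.22 and -0.35 ± 0.29, adjusted p = 0.18 and 0.51). HDAC1 also lost its call without fr105 replicate 3, 5 or 7 or wild-type replicate 3, 5, 7 or 8 (-0.68 to -0.54), and rbbp4 without fr105 replicate 1, 3, 5, 7 or 8 or wild-type replicate 2, 3, 6, 7 or 8 (-0.78 to -0.62). dnmt4 had 10.5, 41.1 and 48.1 CPM in fr105 and 64.9, 95.8 and 145 CPM in wild-type, without overlap, and the class shares gave -0.06. Of 58 splicing factor genes 10 fell (17.2%, against 12.5% of all genes tested) and none rose (median -0.28, class shares -0.17), among them srsf3b, HNRNPM and prpf38b at -0.83 ± 0.20, -1.03 ± 0.25 and -1.46 ± 0.39. Of 44 chaperone genes 5 rose and 6 fell (25% called, against 24% of all genes tested). BAG6, a chaperone for membrane proteins, had 42.7, 62.3 and 94.9 CPM in fr105 and 0, 2.5 and 14.1 CPM in wild-type, without overlap (3.35 ± 0.43, adjusted p = 1.7e-07). hspa12b, an Hsp70-related gene, had 1.85 ± 0.28, and ppiab, a cyclophilin, 0.44 ± 0.12 over all cells and 0.79 ± 0.12 in neutrophil-like cells. Of 15 apoptosis genes 1 fell (6.67% called, against 24% of all genes tested). This was bcl2l1, which encodes the survival protein Bcl-xL, at -1.13 ± 0.31 with 0.15 given by the class shares. None of the 25 constitutive proteasome genes and none of the 7 macrophage scavenger and complement genes tested was called over all cells.

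The genes with the greatest separated changes by the naming rule had other functions. p3h3, a collagen prolyl hydroxylase, had 54.9, 71.5 and 78.4 CPM in fr105 and none in wild-type, from 135 transcripts against 0, at least 43.6-fold higher against a floor of 3 transcripts over the group. tmem176l.4, a membrane protein gene, had 99 transcripts against 0, at least 31.9-fold higher by the same floor. col27a1a, a fibrillar collagen, had 207 against 3 transcripts and a ratio of 66.8 (95% exact interval 22.5 to 327, counting error only). ms4a17a.1, of the membrane-spanning MS4A family and a leading gene of cluster 16, had 137 against 1 and a ratio of 133 (23.4 to 5276), and sept9a, a septin, 83 against 2 and a ratio of 40.2 (10.8 to 337). The gene si:ch211-105c13.3 had 116, 160.4 and 208 CPM in fr105 and 0, 0 and 8.48 CPM in wild-type (log2 fold change 5.78 ± 0.38). Among the lower genes hpxb, a haem-binding hemopexin, had 0, 0 and 14.2 CPM in fr105 and 29.1, 54.1 and 114 CPM in wild-type (-4.37 ± 0.56). maptb, a microtubule-associated tau gene, had 0, 7.44 and 35.6 CPM in fr105 and 56.7, 122 and 166 CPM in wild-type (-3.53 ± 0.40). ca6, a carbonic anhydrase, had 0, 11.3 and 53.4 CPM in fr105 and 98.6, 165 and 219.6 CPM in wild-type (-3.49 ± 0.38). cfbl, a complement factor B-like gene, and calm1b, a calmodulin gene, had -3.87 ± 0.45 and -4.15 ± 0.42 in neutrophil-like cells and -2.67 ± 0.34 and -2.33 ± 0.32 over all cells. For mhc1uba, hpxb, maptb and ca6 the highest fr105 library was replicate 2. The class shares gave between 0.16 and 0.49 for p3h3, col27a1a, ms4a17a.1, sept9a, tmem176l.4, si:ch211-105c13.3, hpxb, maptb, ca6 and cfbl.

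Fewer of the named genes were called within a single set of libraries. Of the 100 genes chosen by the naming rule that were called over all cells, 80 could be tested in P1 and in P2 and 52 were called in each. In P1 alone 22 of them lost the call (log2 fold changes of 0.39 to 1.29 in size, adjusted p = 0.059 to 0.67), among them ikzf1, ighm, ctss1, ATP6V1F, atp6v0d1, spi1b, klf6a, s100a10b, eif5a, nop58, npm1a, LIG1, srsf3b, HNRNPM, HDAC1, rbbp4, notch1b, atp5if1b, ppiab and atp1a1a.4. In P2 alone 12 of 88 lost it (0.41 to 1.51 in size, adjusted p = 0.06 to 0.14), among them psmb8, mmp13a, cd44b, UQCRFS1, SDHA, nop56 and chaf1a. In neutrophil-like cells 12 of 41 lost the call in P1, among them ikzf1, cxcr4b, eif5a, tuba5, atp6v0d1, ATP6V1F, alas1, aldoaa, MT-ND2 and rps26l, and 9 of 45 lost it in P2, among them gsr, ZFP36, ATP6V1H, ATP6V1F, alas1, aldoaa and MT-ND2. At equal class shares 31 of 78 lost it in P1, with ikzf1, notch1b, kita, stmn1a and CDH17 among them, and 26 of 78 in P2. Not every lost call is named here. Over all cells 20 of the 100 genes could not be tested in P1 and 12 could not be tested in P2. The named genes were chosen over both sets together, so a common sign in the sets says nothing more about them. The same limit holds for all 792 genes called over all cells, which were also called over both sets together. Of these, 584 could be tested in P1, where 2 had the opposite sign, and 676 in P2, where none had.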

How the data were processed

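Single-cell 3′ RNA libraries of fr105 and wild-type kidney marrow were analysed. The remaining libraries of the series entered the clustering, the class profiles of the offset fit, the gene filter, normalization and the estimate of spread. The authors sequenced mCEL-Seq2 libraries, demultiplexed with bcl2fastq 2.17.1.14, mapped reads with BWA 0.6.2-r126 to zebrafish transcript models of Ensembl, discarded reads mapping to several places, and deposited expected counts, that is unique molecular identifiers of 6 bases corrected for collisions in a pool of 4096. These were rounded to whole numbers after summing. No counts were removed for doublets because wells held 1 sorted cell. Of 23981 gene IDs 18166 had a symbol (75.8%), 200 of them only from tables of the study.

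Cells were barcodes with at least 1500 transcripts among the 96 used of 192 per file. They were clustered (2000 variable genes, 30 components, 15 neighbours, Leiden resolution 1, leidenalg 0.10.2) into 18 clusters, and a cluster was named where at least 3 markers and 30% of a marker list were among its genes at 2-fold or more, and at least 1.5 times as many as for the next list. No other list could have more members among the 10 leading genes of the cluster, a rule that left cluster 9 unnamed. A cluster of low depth without own markers among these 10 would also have stayed unnamed. The 30% was set after the data were seen and left cluster 13 unnamed. Transcripts were summed per library and tested with edgeR 4.0.16 (quasi-likelihood, TMM, filterByExpr, all 24 libraries sharing the spread, R 4.3.3), with Benjamini-Hochberg adjustment over all genes tested and a threshold of 0.05. Neutrophil-like sums needed 5 such cells per library. The offset fit used class profiles pooled over genotypes. Gene CPM carry TMM factors, and list sums and pooled class values do not. Values pooled over the cells of a class take no account of the library and were not tested. Class shares and depth were compared by the exact permutation test (two-sided, 12870 arrangements, smallest p 0.00016, scipy 1.17.1). Intervals and floors of counts (3 transcripts, 95%) cover counting error only. Scripts were tested on simulated data.

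Members, lists and marker genes were chosen with earlier results of these data known. Named genes were ikzf1, up to 3 called genes with the smallest p of each list, the 8 higher and 8 lower called genes with the largest change and no overlap of libraries, and 5 of each in neutrophil-like cells. Genes given by name alone as called members of a list were chosen by that call. Some genes that the lists or the rule include are not reported here, and counts over lists and genes include them. Alternatives were DESeq2 1.42.0, other normalization, no filter, a replicate block, single sets, deeper or thinned cells, other classes, and leaving out each library.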

Additional observations from a re-analysis of the deposited data

Results flagged for a closer look

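In each group of 8 libraries the highest or lowest library was set against its nearest neighbour by Dixon's ratio, and 34 of 262 groups tested had a library that stood apart, where chance gives about 5% of groups. Genes share libraries, so these groups are not independent.

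Among class shares, cluster 13 was highest in fr105 replicate 6 (20.51% of transcripts), cluster 17 in fr105 replicate 2 (0.802%) and cluster 7 in fr105 replicate 1 (1.15%), while cluster 16 was highest in wild-type replicate 3 (2.89%) and cluster 9 in wild-type replicate 4 (10.1%).

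In fr105, replicate 2 was the highest library over all cells for ca6 (53.4 CPM), hpxb (14.2 CPM), maptb (35.6 CPM) and mhc1uba (39.2 CPM), genes that were lower in fr105, and the lowest for psmb8 (24.9 CPM). In neutrophil-like cells it was the highest for cfbl (58 CPM) and nfkbiab (239 CPM). Replicate 4 was the highest for alas1 (208 CPM), itk (132 CPM), steap4 (175 CPM) and uros (32.9 CPM) and the lowest for klf6a (11 CPM). MT-ND2 was highest in replicate 5 (4974 CPM) and ighm in replicate 3 (58.8 CPM). dusp1 was highest in replicate 7, over all cells (153 CPM) and in neutrophil-like cells (147 CPM).

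In wild-type, the highest library over all cells was replicate 6 for MT-ND1 (1462 CPM) and mmp13a (1516 CPM), replicate 3 for anxa3b (143 CPM), replicate 5 for cxcr4b (2287 CPM) and ms4a17a.1 (2.83 CPM), replicate 1 for ccl34b.8 (3.5 CPM) and mmp14b (10.5 CPM), and replicate 7 for the tfr1b model ENSDARG00000077372 (3.96 CPM). The lowest was replicate 2 for ATP6V1H (25 CPM) and replicate 4 for mhc1zba (41.5 CPM). In neutrophil-like cells col27a1a was highest in replicate 2 (9.96 CPM), ctsk was highest in replicate 4 (21 CPM) and npsn was lowest in replicate 6 (878 CPM). Values from a few transcripts, as for ms4a17a.1, ccl34b.8 and tfr1b, stand apart wherever the other libraries are at or near 0.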

How the results depend on the processing

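Without the filter on low counts 1537 of 23644 genes tested were called over all cells and 450 of 20910 in neutrophil-like cells. In P1 alone the calls were 213 of 2277 genes tested over all cells, 126 of 1169 in neutrophil-like cells and 152 of 3296 at equal class shares. With cells thinned to 1500 transcripts they were 184 of 772 genes tested, 61 of 348 and 166 of 3296. The share of higher calls also moved, to 36.9% in neutrophil-like cells in P2 alone, and at equal class shares to 60.5% in P1, 34.2% in P2, 36.2% with cells of at least 3000 transcripts and 69.9% after thinning. rps26l in neutrophil-like cells had a log2 fold change of 0.0485 in P1 alone. Of the class shares 4 passed the threshold, against 2 with classes set by marker lists, 0 with cells of at least 3000 transcripts, and 0 in P1 or P2 alone, where 4 libraries against 4 give no exact p below 0.0286. The difference in median transcripts per cell was 1333.32 in P1 alone and 794.72 with cells of at least 3000 transcripts, and 2248.88 in neutrophil-like cells in P1 alone.

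Leaving out 1 library at a time gave 707 to 845 calls over all cells, 231 to 277 in neutrophil-like cells and 328 to 391 at equal class shares, 4 to 6 class shares, and depth differences of 1319.59 to 1727.5 and, in neutrophil-like cells, 1991.84 to 2496.8. DESeq2 called 805 genes over all cells. Same-numbered libraries did not pair (correlations of -0.144 to 0.0961), and a replicate block gave 585, 244 and 332 calls. Named genes that were called in the main fit were refitted under the alternatives. Of these fits 6254 kept direction and side of the threshold, 377 lost the call and 1 changed sign. Fits in which the gene fell under the filter were not counted, and many fits left out only 1 library. These counts are therefore no independent check. At equal class shares, leaving out 1 library at a time ended the call of klf6a in 11 fits, of eif5a2 in 10 and of UQCRFS1 in 9. The causes were not tested.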

Other observations

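The libraries of a genotype shared a lane and name no fish, so lane, fish and genotype cannot be told apart. The fit at equal class shares takes the profile of cluster 16 almost only from fr105 cells and counts what is particular to them as mix. The profile of kidney tubule-like cells came from fr105 cells and from the remaining libraries of the series, with 2 wild-type cells. Cells of fr105 were deeper, while tests used library sums. The cells of a library held 243150 ± 79435 transcripts in fr105 and 235370 ± 77755 in wild-type (SD, n = 8 each). What depth per cell does to the detection of low genes was not tested. Only neutrophil-like cells were numerous enough for a test within 1 class.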
